A study of Mus musculus with 20 samples.

Results

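The comparison described here set the C2C12 myotubes that received a low dose of hydrogen peroxide (H2O2) against untreated myotubes. Its members were the 8 arrays whose titles give 1 or 10 µM H2O2, pooled, and the 4 arrays at 0 µM, so 12 of the 20 arrays of the series. C2C12 is a widely used mouse cell line derived from muscle satellite cells, and its cells stop dividing and fuse into contractile fibres called myotubes once growth factors are withdrawn. All groups shared 96 h of differentiation in low-serum medium followed by 2 h of exposure in medium with 0.5% horse serum, and they differed only in the H2O2 added, which was 0, 1, 10, 100 or 1000 µM with 4 arrays per dose. The title of 1 array at 1 µM misspells the unit, and the title of 1 array at 10 µM carries no replicate number. That array was counted with the arrays numbered 1 because its values group with theirs, and each dose then has 1 array in this replicate-1 batch. The RNA was hybridised to the Affymetrix Mouse Genome 430A chip. The line is a clonal model of muscle in a dish, and the design text calls the replicates independent without saying whether they were separate cultures, so the p-values here reflect the spread among these arrays, part or all of which may be technical.

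H2O2 is a small oxidant that crosses membranes, is removed by catalase, peroxiredoxins and glutathione peroxidases, and acts as a signal by oxidising cysteines of phosphatases, kinases and sensor proteins. At doses that damage cells it is known for inducing the NRF2 programme of detoxifying enzymes, the p53 programme of cell cycle arrest and death genes, and the immediate early genes, whose short-lived mRNAs follow the activity of MAP kinases within minutes to hours. Hes1, a basic helix-loop-helix repressor switched on by the Notch receptor and by other inputs, holds back muscle differentiation in myoblasts, and its mRNA is also short-lived.

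Few probe sets passed the test at the low doses, and most tested genes had a 95% interval within a 1.5-fold change from untreated. In the limma fit to all 20 arrays with a term for the batch, 9 of 14379 probe sets were called, which means a Benjamini-Hochberg adjusted p under 0.05. Of these 3 rose (0.0209% of those tested) and 6 fell (0.0417%). With each array centred on its median signal the split turned, to 4 rises and 1 fall, and Egr1, Gadd45a, Olfm1, Cnbp and Snhg1 lost their call. The genes among them whose representative probe set was called were Hes1, Egr1 and Gadd45a, which fell, and Lmcd1 and Timp3, which rose. A gene is represented by its tested probe set of highest mean signal, which gave 8159 genes. Of these, 2 rises and 3 falls were called. A count of 0 calls in a gene list below is near that share and is not a result about the list. At an unadjusted p under 0.05 there were 475 genes with a positive difference (5.82%) and 633 with a negative one (7.76%). In 22 genes (0.27%) all 8 low-dose arrays lay above all 4 untreated arrays, and in 56 (0.686%) all 8 lay below. The 95% interval of the log2 difference lay within 1 unit of 0 for 98.1% of genes and within a change of 1.5-fold for 89.8%. These shares are for representative probe sets and do not cover the 8247 probe sets too dim to be tested. A shift common to all genes could not be seen, since the arrays were scaled to a common mean.

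The number of calls depended on single arrays. Without untreated replicate 1, 2, 3 or 4 it was 20, 0, 1 or 3. Without 1 µM replicate 1, 2, 3 or 4 it was 26, 23, 12 or 2, and without 10 µM replicate 1, 2, 3 or 4 it was 1, 17, 1 or 12. With no batch term, or in a fit to the 12 arrays alone, Hes1 was the single call.

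Some arrays stood apart. The first principal component of the 12 arrays held 36.6% of the variance and separated the 3 replicate-1 arrays (scores of 26.54 to 44.98) from the other 9 (-16.66 to -8.85). Among the 12, untreated replicate 1 had the lowest mean correlation with the other 11 arrays (0.9477), the highest median log2 signal (7.531) and a log2 ratio of 3' to 5' beta-actin probe sets of -0.112, against 0.08 to 0.272 in the rest. It and 1 µM replicate 2 received the lowest array weight of the 20 (0.29 each). With replicates 2 to 4 alone, 392 genes had a positive and 605 a negative difference at an unadjusted p under 0.05. The cultures had the marker genes of myotubes, with signals of 5263 to 7766.5 for Myh3, 4595.9 to 7913.9 for Ckm and 6334.9 to 7647.2 for Myog over the 12 arrays, while Pax7, which marks satellite cells, was too dim to be tested. Of 14 leukocyte genes 5 were tested, among them the macrophage gene Adgre1 (signals of 64.9 to 145), whereas Ptprc, Cd3e and Itgam were too dim. In RNA from whole cultures, fewer cells of a type and less RNA per cell cannot be told apart.

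Hes1 had the smallest p of all probe sets in the pooled comparison. Its signals were 793.5, 943, 854.3 and 906.8 on the untreated arrays, 636, 683.5, 594.8 and 617.9 at 1 µM, and 579.7, 563.5, 588.9 and 561.1 at 10 µM. All 8 low-dose signals lay below the lowest untreated signal. Hes1 fell by 0.54 on the log2 scale (SE 0.07, adjusted p = 0.00346). It fell by 0.46 at 1 µM (adjusted p = 0.0192; with the replicate number as a block 0 probe sets were called at 1 µM) and by 0.61 at 10 µM (0.00471), and at 100 and 1000 µM, against the same untreated arrays, by 0.42 and 0.36. The difference between 100 µM and the pooled low doses was 0.12 (SE 0.07, adjusted p = 0.438). The Hes1 difference was -0.39 among the replicate-1 arrays and -0.59 among replicates 2 to 4. The call was lost without untreated replicate 2 (adjusted p = 0.0599) and held in the other 11 fits that left out 1 array and in all 10 fits with another setting.

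**Figure D1:**
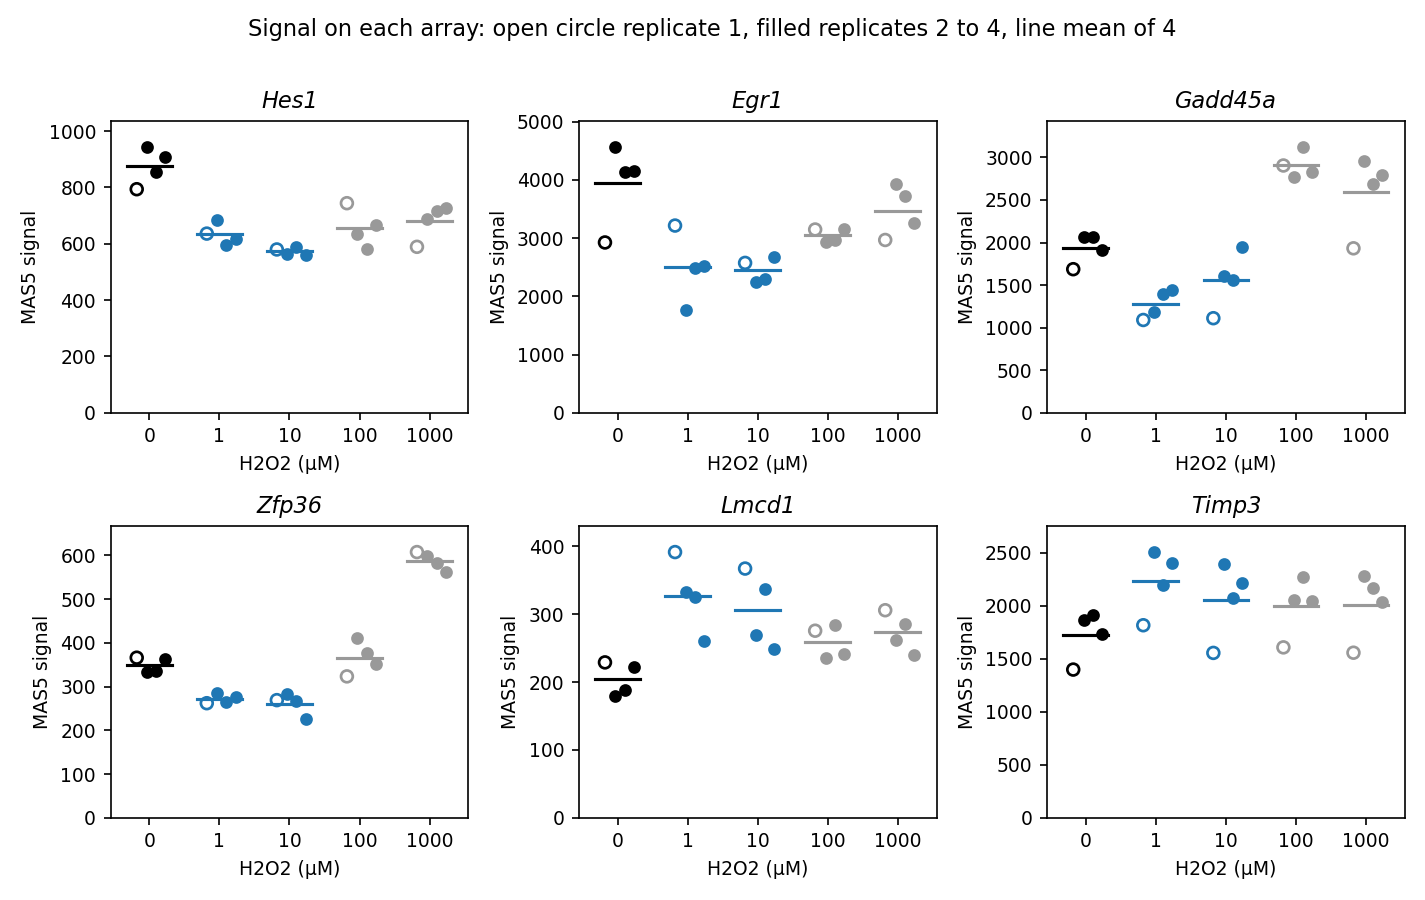
Signal on each array (vertical axis, linear MAS5 units from 0) against H2O2 dose (horizontal axis, µM) for 6 genes, with replicate 1 as open circles, replicates 2 to 4 as filled circles and the mean of 4 as a line. Black marks untreated arrays, blue the low doses and grey the high doses. All 8 low-dose signals lie below the untreated ones for Hes1 and Zfp36 and above them for Lmcd1, while Gadd45a is low at 1 and 10 µM and high at 100 µM.

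Hes1 was the one called member of the 24 tested genes of the Notch pathway list. In that list 1 positive and 4 negative differences had an unadjusted p under 0.05, against 5.82% and 7.76% over all genes. The list's median difference was -0.05 (0 after quantile normalization), against -0.02 over all genes tested. Among the ligands, Dll1, which activates Notch on neighbouring cells, had signals of 406.2, 361.9, 393 and 353.3 untreated, 313.4, 226.3, 290 and 280.6 at 1 µM, and 300.9, 310.8, 339.3 and 291 at 10 µM. The groups of Dll1 did not overlap, yet its difference of -0.37 (SE 0.09) did not pass (adjusted p = 0.0911). The receptor Notch3 differed by -0.17 (SE 0.06, adjusted p = 0.214) and Notch2 by 0.14 (0.428). Lfng, a glycosyltransferase that modifies Notch receptors, differed by 0.43 (SE 0.19, adjusted p = 0.342), or 0.28 among replicates 2 to 4. The DNA-binding partner of activated Notch, Rbpj, differed by 0.08 (0.708), and of the other targets Heyl differed by -0.03 (0.921) and Nrarp by -0.39 (SE 0.26, 0.533). Hes6, a relative known to oppose Hes1, differed by -0.05 (0.742).

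Among the 36 tested immediate early genes, Egr1 was the one call. Egr1 encodes a zinc-finger transcription factor induced by growth factor and stress signals. Its untreated signals were 2925.1, 4563, 4139.7 and 4158.3, those at 1 µM were 3215.5, 1774.2, 2487.3 and 2521, and those at 10 µM were 2574.4, 2249.7, 2305.5 and 2670.7. The groups overlapped through the replicate-1 arrays alone, since 7 of 8 low-dose signals lay below every untreated signal and the exception was 1 µM replicate 1. Egr1 fell by 0.67 (SE 0.12, adjusted p = 0.0263), with the same difference of -0.67 at each low dose, and the difference was -0.02 among the replicate-1 arrays and -0.89 (SE 0.10, adjusted p = 0.000492) among replicates 2 to 4. The call was lost on leaving out untreated replicate 2, 3 or 4, 1 µM replicate 4, or 10 µM replicate 1 or 3 (highest adjusted p = 0.165).

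Of the early genes, 10 had a negative and 2 a positive difference at an unadjusted p under 0.05. Over all genes these shares were 7.76% and 5.82%. The median of the early list was 0.01 (-0.05 among replicates 2 to 4 and -0.02 after quantile normalization). With replicates 2 to 4 alone, 43 probe sets were called, 7 rises (0.0487%) and 36 falls (0.25%), which held all 9 calls of the full fit. By representative probe set, the early genes that fell there were Egr1, Ier2, Fos and Egr2, and a second probe set of Ccn1 (-0.49, adjusted p = 0.0282) and of Btg1 (-0.43, 0.0242) fell as well. Except for Egr1, these genes were chosen after their values were seen. Fos, a subunit of the AP-1 transcription factor, had untreated signals of 372, 363.7, 387.2 and 395, with 497.1, 153.3, 227.3 and 253 at 1 µM and 459.7, 228.1, 260.7 and 270.5 at 10 µM. Its low-dose signals were lower than untreated in replicates 2 to 4 and higher in replicate 1. The Fos difference was -0.74 among replicates 2 to 4 (SE 0.12, adjusted p = 0.0173), 0.36 among the replicate-1 arrays and -0.47 over all (SE 0.16, adjusted p = 0.227). At 1000 µM, by contrast, Fos lay 2.02 above untreated.

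Ier2, an early gene product of the nucleus, had untreated signals of 941.2, 1561.9, 1566.3 and 1505.2. At 1 µM they were 1228.8, 1193.5, 1080.3 and 972.3, and at 10 µM 1226.2, 925.9, 1025.9 and 1025.3. The low untreated signal of Ier2 is that of replicate 1, and without the batch's arrays the groups do not overlap. Ier2 differed by -0.34 over all arrays (SE 0.11, adjusted p = 0.205), fell by 0.58 among replicates 2 to 4 (SE 0.07, adjusted p = 0.000536) and differed by 0.38 among the replicate-1 arrays. The interaction of low dose and batch passed the test for Ier2 (adjusted p = 0.0103) and for Egr2, a relative of Egr1 (-0.47 among replicates 2 to 4, 0.28 among replicate-1 arrays, adjusted p = 0.0447). It also passed for Fosl1, another AP-1 subunit, in the other direction (0.42 and -0.65, adjusted p = 0.0316). For Egr1 (0.0764) and Fos (0.0939) it did not. Because the replicate-1 difference rests on 1 untreated array, the part of that array in these results was not tested.

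**Figure D2:**
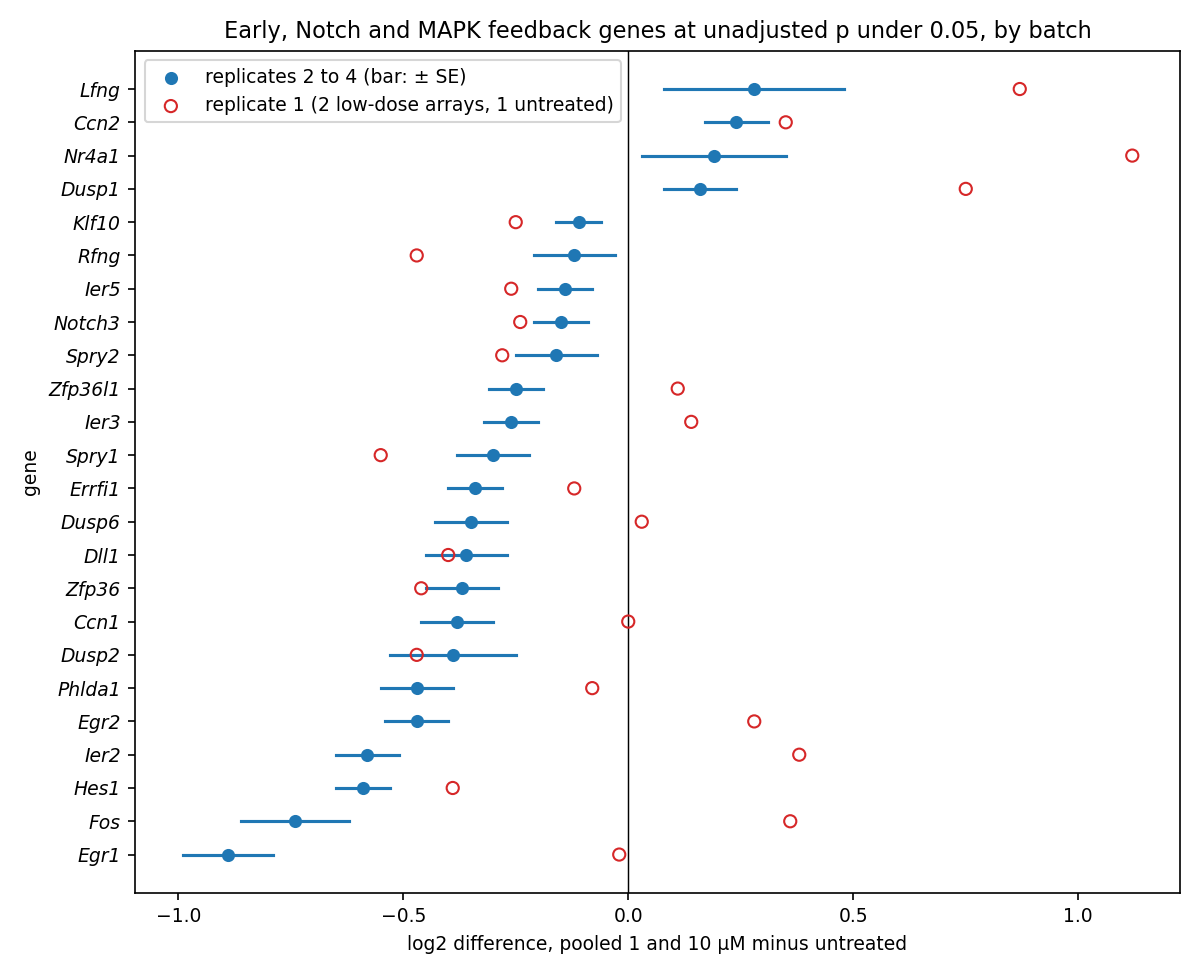
Log2 difference between the pooled low doses and untreated myotubes (horizontal axis) for each immediate early, Notch pathway or MAPK feedback gene at an unadjusted p under 0.05 (vertical axis). Blue points are replicates 2 to 4 with their SE, and open red circles are the replicate-1 arrays. Fos, Ier2 and Egr2 lie on opposite sides of 0 in replicates 2 to 4 and in replicate 1, at -0.74 and 0.36, -0.58 and 0.38, and -0.47 and 0.28.

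Zfp36 and Ier5 were lower in both batches. Zfp36, the RNA-binding protein that speeds decay of mRNAs with AU-rich elements, had signals of 366, 332.3, 334.5 and 362.6 untreated, 262, 284.7, 263.6 and 276.1 at 1 µM, and 269, 281.9, 266.8 and 225.5 at 10 µM. Its groups did not overlap, and its difference of -0.39 (SE 0.08) missed the threshold by little (adjusted p = 0.0503). At 1000 µM Zfp36 rose by 0.75 (adjusted p = 4.42e-06), and 100 µM lay 0.45 above the pooled low doses (SE 0.08, adjusted p = 0.000718). Ier5, another early gene, was also non-overlapping with a smaller difference of -0.17 (SE 0.06, adjusted p = 0.197). Of the 36 early genes, 20 had a positive and 16 a negative difference in the fit to all arrays. The matrix protein gene Ccn2 differed by 0.27 (SE 0.06, adjusted p = 0.071), the nuclear receptor Nr4a1 by 0.43 (SE 0.19, 0.338; 0.19 among replicates 2 to 4), and Jun by 0.06 and Junb by -0.16.

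Among inhibitors that restrain MAP kinase signalling, 0 of 15 tested members were called (median -0.03, or 0.01 after quantile normalization). Here 1 positive and 6 negative differences had an unadjusted p under 0.05, against 5.82% and 7.76% over all genes. Spry1, an inhibitor of receptor tyrosine kinase signalling, had untreated signals of 1041.4, 1091.5, 948.9 and 921.9, against 672.5, 748.4, 827.4 and 835.2 at 1 µM and 749.2, 803.7, 791.5 and 793.4 at 10 µM. These groups did not overlap, and the difference was -0.36 (SE 0.08, adjusted p = 0.0693). At 100 µM Spry1 fell by 0.97 against untreated and by 0.61 against the pooled low doses (SE 0.08, adjusted p = 2.53e-05). Errfi1, an inhibitor of the EGF receptor, and Phlda1 fell among replicates 2 to 4 (-0.34 and -0.47, adjusted p = 0.0205 and 0.0208), with -0.29 and -0.38 over all arrays (0.0911 and 0.126). The phosphatase Dusp1 differed the other way, by 0.30 (SE 0.09, adjusted p = 0.173), or 0.16 among replicates 2 to 4.

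Among 30 tested repressors and zinc-finger factors with short-lived mRNA, Hes1 was called. In 3 members, Hes1, Zfp36 and Snai2, the groups were non-overlapping downward, against 0.686% of all genes. Hes1 is also counted in the Notch list and Zfp36 in the early gene list. At an unadjusted p under 0.05, 2 differences were positive and 8 negative, against 5.82% and 7.76% over all genes. The list's median was -0.05. Snai2, a repressor of epithelial genes that is also found in myoblasts, had untreated signals of 469.5, 626.4, 632 and 581.3. The signals were 267.9, 153.4, 445.1 and 261.1 at 1 µM and 123.4, 421.2, 349.7 and 284.1 at 10 µM. The low-dose signals of Snai2 were all lower than untreated but spread widely, and its difference of -1.11 (SE 0.23) did not pass (adjusted p = 0.0551). The repressor Nfil3 differed by 0.33 (SE 0.09, adjusted p = 0.156), or 0.17 among replicates 2 to 4. The myogenic regulators and their inhibitors included 0 calls in 21 tested genes and a median of -0.07 (-0.06 after quantile normalization). Of them, 1 had a positive and 6 a negative difference at an unadjusted p under 0.05. The helix-loop-helix inhibitors Id1, Id2 and Id3 differed by -0.19, -0.35 and -0.55 (adjusted p = 0.205, 0.207 and 0.0772). The muscle determination factor Myod1 was non-overlapping downward at -0.25 (SE 0.09, adjusted p = 0.211), and Myog, which drives the final step of differentiation, differed by 0.03.

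Gadd45a, a stress gene of growth arrest and DNA repair, went opposite ways at low and high doses. Its signals were 1686.6, 2070.3, 2063.7 and 1906.3 untreated, 1090.2, 1182.8, 1396.4 and 1446.1 at 1 µM, 1111.2, 1608.1, 1563.4 and 1950.2 at 10 µM, and 2904.2, 2772, 3120.5 and 2827.2 at 100 µM. Of the pooled low-dose arrays, 7 of 8 signals lay below every untreated one, with 10 µM replicate 4 the exception, and every 100 µM signal lay above them all. Gadd45a fell by 0.47 at the low doses (SE 0.08, adjusted p = 0.0263) and rose by 0.59 at 100 µM (SE 0.10, adjusted p = 0.000752). The direct difference of 100 µM from the pooled low doses was 1.06 (SE 0.08, adjusted p = 1.64e-08). The low-dose difference was -0.62 in the replicate-1 batch and -0.42 in replicates 2 to 4 (adjusted p = 0.0261). It was larger at 1 µM (-0.60, adjusted p = 0.0192) than at 10 µM (-0.33, 0.256), but the difference between the doses, 0.27 (SE 0.10), did not pass (0.649). The call was lost without any 1 of the 4 untreated arrays, 1 µM replicate 4 or 10 µM replicates 1 and 3 (highest adjusted p = 0.131).

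Pmaip1 and Bbc3, the BH3-only death genes known as Noxa and Puma, are targets of p53. Pmaip1 signals were 1498, 1443.2, 1481.1 and 1546.2 untreated, 897, 1125.6, 1175.3 and 1202.6 at 1 µM, and 1078.2, 1438.1, 1257.9 and 1305.3 at 10 µM. These groups did not overlap, although the highest at 10 µM nearly met the lowest untreated signal. Pmaip1 differed by -0.34 in the pooled comparison (SE 0.07, adjusted p = 0.0531) and fell by 0.45 at 1 µM (adjusted p = 0.0192). Bbc3 differed by -0.42 at the low doses (SE 0.11, adjusted p = 0.152) and rose by 1.09 at 100 µM (adjusted p = 1.69e-05). The list of 26 tested p53 targets had 0 calls, but it does not hold the called gene Gadd45a. Of its members, 2 had a positive and 6 a negative difference at an unadjusted p under 0.05. The shares over all genes were 5.82% and 7.76%. The list's median was -0.03 at the low doses and 0.80 at 100 µM. Cdkn1a, the p53-driven inhibitor of cyclin-dependent kinases, differed by 0.22 (SE 0.06, adjusted p = 0.16), which was 0.50 among the replicate-1 arrays and 0.13 among replicates 2 to 4, and its second probe set differed by -0.05 (0.824).

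Of 31 tested genes of the ATF4 amino-acid response 0 were called, and the median was 0. At an unadjusted p under 0.05, 2 had a positive and 4 a negative difference, against 5.82% and 7.76% over all genes. Chac1, which degrades glutathione, was non-overlapping downward at -0.30 (SE 0.08, adjusted p = 0.118), and it rose by 1.13 at 100 µM and fell by 1.13 at 1000 µM. Trib3 differed by -0.32 (SE 0.11, 0.205) and the stress factor Ddit3 by -0.13 (SE 0.08, 0.497). Atf4 itself had probe sets that disagreed, one at -0.38 (SE 0.08, adjusted p = 0.052) and the representative one at 0.11 (0.585). The first fell by 0.48 among replicates 2 to 4 (SE 0.07, adjusted p = 0.00543) and by 0.47 with array weights (0.000751), while the representative one differed by 0 among replicates 2 to 4.

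Apart from Gadd45a, the stress genes examined for their rise at 100 µM gave no call at the low doses. At 100 µM 570 probe sets were called against untreated (3.96%) and at 1000 µM 3282 (22.8%), and between 100 µM and the pooled low doses 679 were called (4.72%). These comparisons share the untreated or the low-dose arrays. Hmox1, the heme-degrading enzyme of the NRF2 programme, differed by -0.10 at the low doses, with a 95% interval of -0.32 to 0.12, and rose by 1.96 at 100 µM (SE 0.12, adjusted p = 5.78e-10). Slc19a2, a thiamine transporter, differed by -0.15 (-0.35 to 0.04) and rose by 2.15. Srxn1, which repairs over-oxidised peroxiredoxins, differed by -0.14 (-0.37 to 0.09) and rose by 1.3. Among replicates 2 to 4 Hmox1 and Srxn1 differed by 0.01 and 0.06, against -0.42 and -0.74 among the replicate-1 arrays. The 3 other tested probe sets of Srxn1 differed by 0.24 (SE 0.08, adjusted p = 0.205), 0.23 (SE 0.16) and -0.64 (SE 0.54). The first of them had a mean log2 signal of 8.51, against 8.64 for the representative one and 5.54 for the last. The intervals of Txnrd1 (-0.11 to 0.16) and Gclm (-0.15 to 0.40), enzymes of the thioredoxin and glutathione systems, held 0 as well, and so did those of Trp53inp1 (-0.38 to 0.05), Ddit3 (-0.30 to 0.04), Atf3 (-0.41 to 0.72) and Myc (-0.09 to 0.24). Sesn2 differed by -0.40 (-0.77 to -0.03, adjusted p = 0.331) and Mdm2 by -0.21 (-0.42 to 0). Over 23 tested NRF2 targets 0 were called and the median was -0.05, against 0.32 at 100 µM. At an unadjusted p under 0.05, 1 NRF2 target had a positive and 2 a negative difference. Over 24 antioxidant enzymes 0 were called and the median was 0.05, with 2 positive and 0 negative differences at this p. The shares over all genes were 5.82% and 7.76%.

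**Figure D3:**
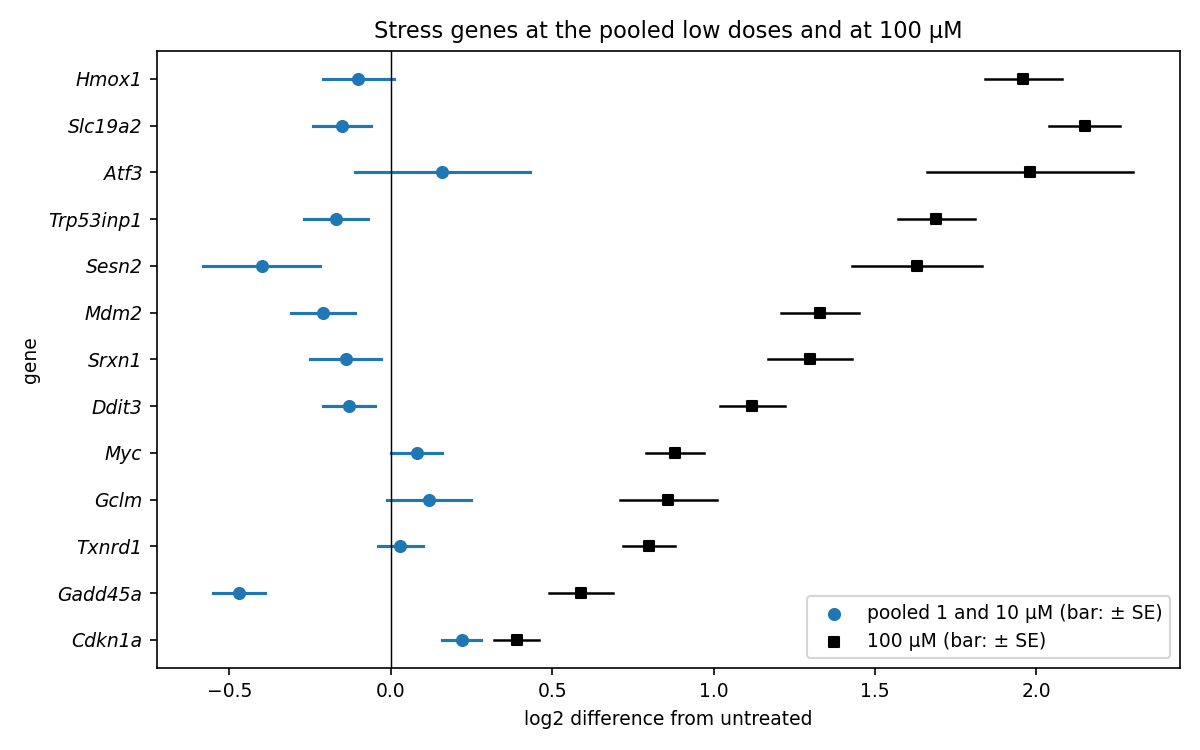
Log2 difference from untreated (horizontal axis) of 13 stress genes (vertical axis) at the pooled low doses (blue circles) and at 100 µM (black squares), each with its SE. The low-dose values lie from -0.47 (Gadd45a) to 0.22 (Cdkn1a) and the values at 100 µM from 0.39 (Cdkn1a) to 2.15 (Slc19a2).

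Lmcd1 and Timp3 were the genes that rose. Lmcd1, a LIM-domain regulator of muscle and heart transcription, had untreated signals of 229.1, 179.5, 188 and 223, against 391.7, 332.9, 325.7 and 260.2 at 1 µM and 367.4, 269.7, 336.9 and 249.3 at 10 µM. The groups did not overlap. Lmcd1 rose by 0.62 (SE 0.10, adjusted p = 0.0258), by 0.73 among the replicate-1 arrays and 0.58 among replicates 2 to 4 (adjusted p = 0.0492), and it was 0.34 above untreated at 100 µM (adjusted p = 0.103). Its call ended when untreated replicate 2 or 3, or 10 µM replicate 1 or 3, was left out (highest adjusted p = 0.131). Timp3, a secreted inhibitor of matrix metalloproteinases, had untreated signals of 1397.5, 1862.1, 1915 and 1734.6. They were 1815.4, 2505.1, 2194.6 and 2406.6 at 1 µM and 1554.7, 2388, 2070.8 and 2211.9 at 10 µM. Within each batch every low-dose Timp3 signal exceeded the untreated ones, and the pooled groups overlapped through replicate 1. Timp3 rose by 0.31 (SE 0.06, adjusted p = 0.0263), and by 0.32 among replicates 2 to 4 (0.0404), while its 3 other probe sets differed by 0.03 to 0.20 and did not pass. This call ended when the same arrays, untreated replicate 4 or 1 µM replicate 4 was left out (highest adjusted p = 0.131). The next positive differences by p were Chchd1, a mitochondrial protein gene (0.25, SE 0.05, adjusted p = 0.0503), Zdhhc14, a palmitoyltransferase (0.82, SE 0.18, 0.0695), and Ccn2. The other tested Zdhhc14 probe sets went the other way, at -0.16 (SE 0.25) and -0.39 (SE 0.23), so no direction is given for that gene.

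A further 4 called probe sets named no gene by its representative probe set, and they were chosen after their values were seen. A probe set of Olfm1, an olfactomedin, fell by 0.63 (SE 0.11, adjusted p = 0.0263) without overlap, while the 2 other Olfm1 probe sets differed by 0.01 each. A probe set of Cnbp, a nucleic-acid binding protein, fell by 0.43 (SE 0.07, 0.0263), while the brighter one differed by 0.16 (SE 0.06, 0.235). One of 5 probe sets of Snhg1, a host RNA of small nucleolar RNAs, fell by 0.41 (SE 0.07, 0.0263) and the other 4 differed by -0.39 to -0.11. At 100 and 1000 µM the same Snhg1 probe set lay 0.57 and 0.80 above untreated. The remaining call was a probe set with no symbol in the annotation, which rose by 0.48 (SE 0.08, 0.0263). The Olfm1 and Cnbp probe sets disagree, so no direction is given here for these genes as a whole. These 4 calls were also lost in several of the fits that left out 1 array, including those without untreated replicate 2 or 3 or 10 µM replicate 1 or 3 (highest adjusted p = 0.131).

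Promoter windows of Lmcd1 and Gadd45a, called in opposite directions, and of the early genes Fos and Zfp36 are shown with the letters of cAMP and serum response elements in capitals. They span 250 bases before to 50 after the annotated start in RefSeq on build GRCm38.p6, and each is printed on the strand of its gene. Motifs were searched on both strands, counting overlapping matches, as the cAMP response element (CRE) TGACGTCA, the AP-1 site TGANTCA, the RBPJ site TGGGAA and the serum response element (SRE, the CArG box). Capitals mark any match to these 4.
Lmcd1, chr6:112273508-112273807, plus strand: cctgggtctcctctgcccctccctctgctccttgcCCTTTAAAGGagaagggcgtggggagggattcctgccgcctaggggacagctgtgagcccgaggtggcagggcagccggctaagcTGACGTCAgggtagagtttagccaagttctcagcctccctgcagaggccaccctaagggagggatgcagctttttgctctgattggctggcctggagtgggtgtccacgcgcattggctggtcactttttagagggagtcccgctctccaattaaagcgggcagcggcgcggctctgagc
Gadd45a, chr6:67037358-67037657, minus strand: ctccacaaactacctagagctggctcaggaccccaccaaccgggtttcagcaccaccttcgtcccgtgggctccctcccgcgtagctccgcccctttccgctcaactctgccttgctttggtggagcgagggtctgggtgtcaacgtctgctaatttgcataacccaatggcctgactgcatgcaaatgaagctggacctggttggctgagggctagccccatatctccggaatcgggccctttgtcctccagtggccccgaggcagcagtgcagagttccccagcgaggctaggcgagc
Fos, chr12:85473640-85473939, plus strand: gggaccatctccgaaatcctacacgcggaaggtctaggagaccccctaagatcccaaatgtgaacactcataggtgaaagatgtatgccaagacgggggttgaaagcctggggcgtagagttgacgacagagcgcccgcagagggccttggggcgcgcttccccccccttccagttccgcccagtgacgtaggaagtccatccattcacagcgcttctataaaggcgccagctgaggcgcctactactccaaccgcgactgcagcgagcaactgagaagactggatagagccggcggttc
Zfp36, chr7:28379179-28379478, minus strand: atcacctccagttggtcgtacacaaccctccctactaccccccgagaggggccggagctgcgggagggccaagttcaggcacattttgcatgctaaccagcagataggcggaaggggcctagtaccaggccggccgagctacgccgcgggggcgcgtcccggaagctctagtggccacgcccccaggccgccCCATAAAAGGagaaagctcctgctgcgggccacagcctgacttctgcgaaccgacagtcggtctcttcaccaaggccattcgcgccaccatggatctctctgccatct
The Lmcd1 window holds a CRE that begins 130 bases before the start and an SRE that begins 215 bases before it, and the Zfp36 window an SRE that begins 58 bases before it. The Gadd45a and Fos windows hold none of these letters. Sites outside a window and near matches to these letters were not searched, so this does not show that either gene lacks such elements. Among the 6660 of 8159 tested genes with a window, 3.72% held the CRE and 1.73% the SRE. The shares were 4.55% and 3.03% of the 396 genes with a window and a positive difference at an unadjusted p under 0.05, and 3.94% and 1.38% of the 507 with a negative one. For the RBPJ letters they were 26.8% of all, 29.3% of the positive and 22.3% of the negative genes, and for AP-1 6.31%, 5.56% and 7.5%. Of the 7 early genes with a window and a negative difference at an unadjusted p under 0.05, 2 held the SRE (Zfp36 and Egr2), against 3 of all 27 early genes with a window. A match is a description of these letters and not of binding. For the remaining letters searched, the antioxidant response element TGACNNNGC, a loose NF-kB pattern and the N-box CACNAG bound by Hes factors, the shares were 16.9%, 73.1% and 44.5% of all genes with a window, 17.2%, 72% and 44.2% of the positive and 16%, 73.6% and 42.4% of the negative genes.

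Lists of highly expressed housekeeping and muscle genes lay slightly higher at the low doses, while 0 of their members were called. The 44 cytosolic ribosomal protein genes had a median difference of 0.16, with 21 positive and 0 negative at an unadjusted p under 0.05. Oxidative phosphorylation subunits had a median of 0.09 (73 genes, 18 positive and 0 negative), proteasome subunits 0.09 (40 genes, 13 and 0), ribosome biogenesis genes 0.08 (45 genes, 11 and 0) and glycolysis genes 0.06 (16 genes, 6 and 0). Contractile genes had a median of 0.09 with 16 positive and 5 negative in 55 genes. Over all genes the median was -0.02, with 5.82% positive and 7.76% negative. In the brightest of 4 equal bins of genes by mean signal, 315 of 2040 were positive and 76 negative at this p. In replicates 2 to 4 alone the counts at this p were 7 positive and 1 negative for cytosolic ribosomal proteins, 12 and 0 for oxidative phosphorylation, 2 and 1 for the proteasome, 8 and 1 for ribosome biogenesis, 5 and 0 for glycolysis and 10 and 5 for contractile genes. Rps3 and Rpl7a of the ribosome differed by 0.32 and 0.29 (SE 0.09 each, adjusted p = 0.15 and 0.191), Uqcrh of respiratory complex III by 0.44 (SE 0.11, 0.106), and the glycolytic enzyme Tpi1, non-overlapping upward, by 0.24 (SE 0.06, 0.0934). Fast skeletal troponin T, Tnnt3, differed by 0.24 (SE 0.06, 0.115). Among replicates 2 to 4 the values were 0.18 for Rps3, 0.19 for Rpl7a, 0.32 for Uqcrh, 0.20 for Tpi1 and 0.19 for Tnnt3, and among the replicate-1 arrays 0.74, 0.58, 0.81, 0.34 and 0.42.

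These shifts moved with signal level and with the scaling. When the 8159 genes were split into 4 equal bins by mean signal, the median difference was -0.077 in the dimmest bin, then -0.052, -0.025 and 0.038 in the brightest. In the replicate-1 arrays the range from dimmest to brightest was -0.213 to 0.083, and in replicates 2 to 4 it was -0.050 to 0.025. Positive and negative differences at an unadjusted p under 0.05 numbered 50 and 149 in the dimmest bin. In the next bins they numbered 32 and 222, then 78 and 186, and 315 and 76 in the brightest. After quantile normalization, which gives every array the same distribution of signals, the bin medians were 0.020, 0.002, 0.001 and 0.007. The medians of cytosolic ribosomal proteins, oxidative phosphorylation, proteasome and contractile genes were then 0.01, 0.03, 0.04 and 0, and those of myotube markers and fibroblast genes were -0.02 and -0.01, while ribosome biogenesis went from 0.08 to 0.11 and cell cycle genes went from 0.04 to 0.06. Centring each array on its median moved the median of all genes from -0.02 to 0.06, and that of cytosolic ribosomal proteins from 0.16 to 0.25.

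**Figure D4:**
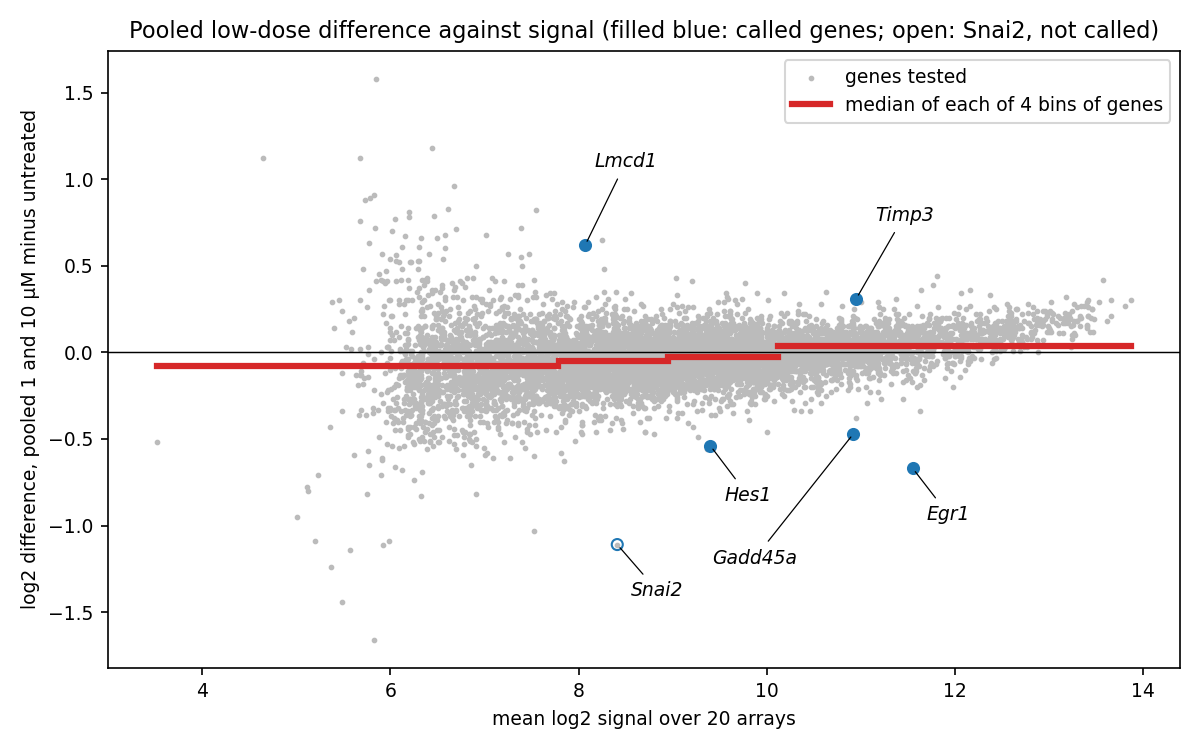
Log2 difference between the pooled low doses and untreated (vertical axis) against mean log2 signal over the 20 arrays (horizontal axis) for 8159 genes in grey. Red bars are the medians of 4 equal bins of genes by signal, from -0.077 at the dim end to 0.038 at the bright end, filled blue points the 5 called genes and the open point Snai2.

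**Figure D5:**
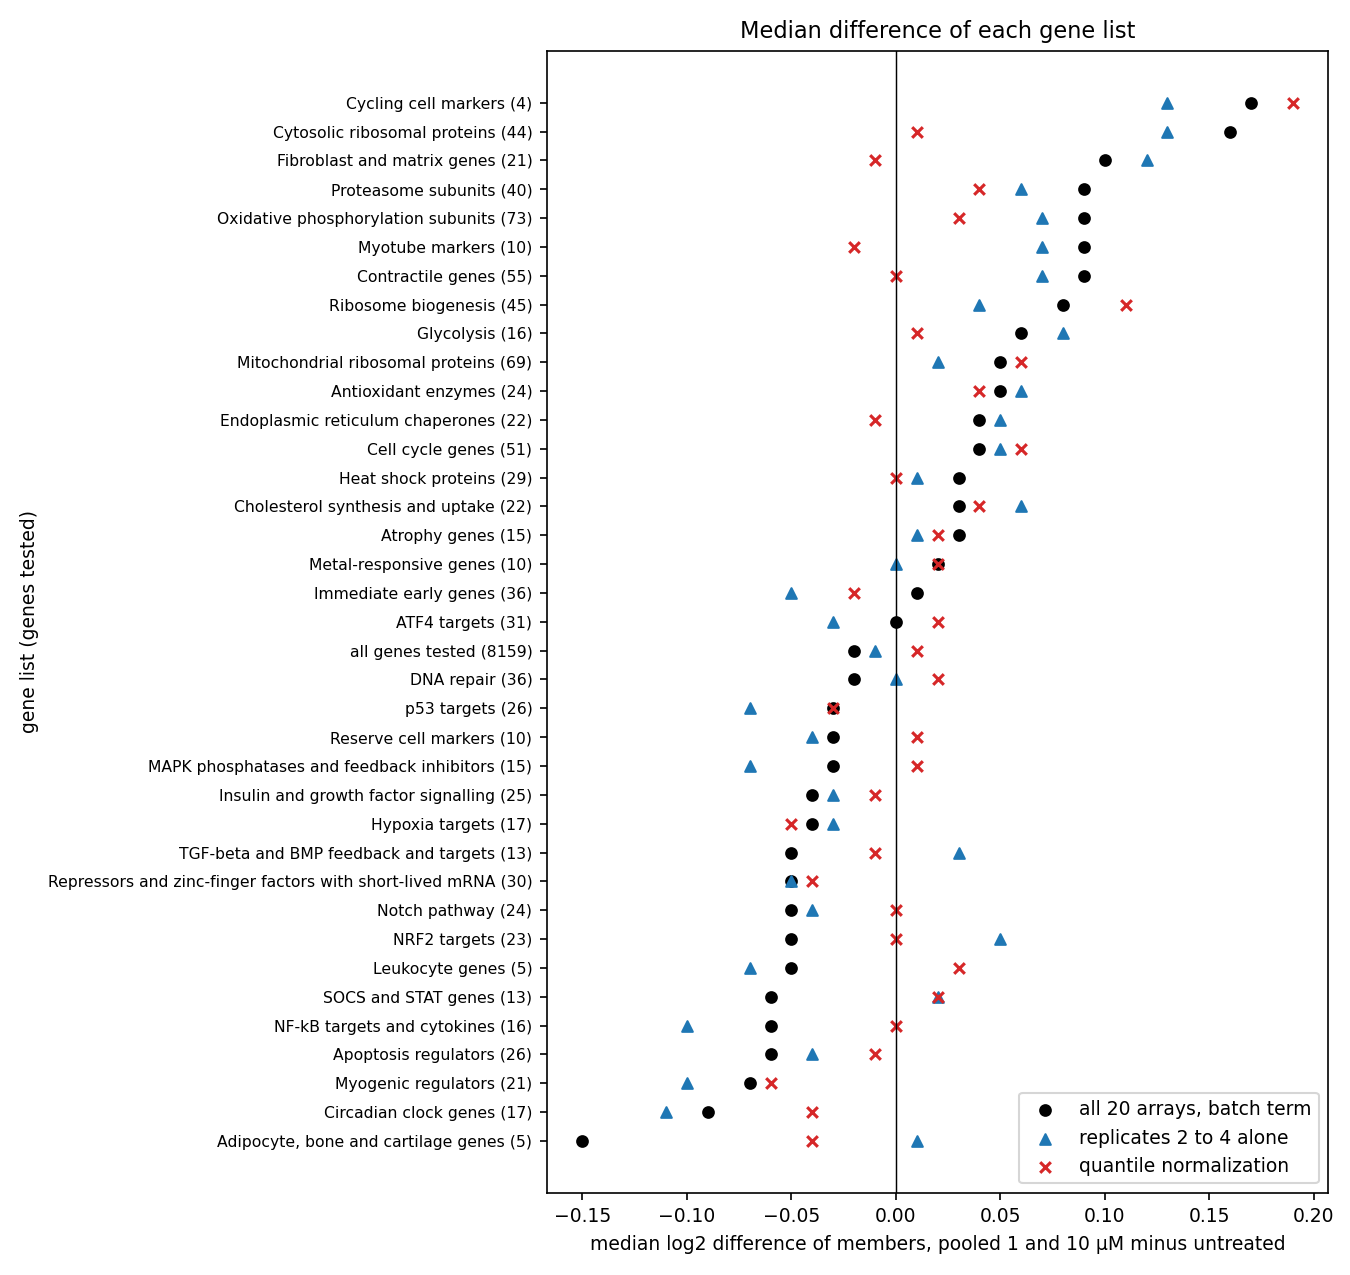
Median log2 difference of the members of each gene list (horizontal axis; vertical axis: list, with the number of genes tested) in the fit to all arrays (black circles), in replicates 2 to 4 (blue triangles) and after quantile normalization (red crosses). Cytosolic ribosomal proteins go from 0.16 to 0.01 after quantile normalization, whereas ribosome biogenesis goes from 0.08 to 0.11.

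Markers of other cells in such cultures were examined as well. The 4 tested markers of cycling cells had a median difference of 0.17 (0.19 after quantile normalization), and their summed signal (sums are over all genes of a list on the chip) was 5300 to 6560 on untreated and 6510 to 7450 on low-dose arrays. The sum of 5300 was that of untreated replicate 1. Their median difference was 0.36 among the replicate-1 arrays and 0.13 among replicates 2 to 4. Of the 51 tested cell cycle genes 0 were called, with 11 positive and 2 negative at an unadjusted p under 0.05. Over all genes 5.82% were positive and 7.76% negative. Thymidine kinase Tk1 differed by 0.30 (SE 0.08, adjusted p = 0.115), and Rrm1, a subunit of ribonucleotide reductase, was non-overlapping upward at 0.20 (SE 0.05, 0.152). Fibroblast and matrix genes had a median of 0.10 and a summed signal of 75800 to 108000 untreated and 84400 to 134000 at low dose, reserve cell markers -0.03 (8950 to 10400 and 8310 to 10600), and the 10 myotube markers 0.09 (52200 to 58300 and 55900 to 68100). The 14 leukocyte genes on the chip summed to 1010 to 1650 and 717 to 1210. The 5 tested ones had a median of -0.05 (0.03 after quantile normalization), with 2 positive and 3 negative differences. Of these, Zap70, a kinase of T cells, was non-overlapping downward at -1.03 (SE 0.32, adjusted p = 0.184), while Cd8a differed by 0.26 and Csf1r by -0.05. The 13 adipocyte, bone and cartilage genes summed to 1730 to 2000 and 1640 to 2020. The part of other cells in the differences above was not tested.

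The remaining lists gave 0 calls, apart from Gadd45a, which is 1 of 36 tested DNA repair genes (median -0.02). In NF-kB targets and cytokines, 16 tested, the median was -0.06, and Nfkbiz, a nuclear regulator of NF-kB, differed by -0.41 over all arrays (SE 0.11, adjusted p = 0.125) and fell by 0.54 among replicates 2 to 4 (0.0469). Apoptosis regulators, 26 tested, had a median of -0.06 with 2 positive and 5 negative differences at an unadjusted p under 0.05. All genes gave 5.82% positive and 7.76% negative at this p. Heat shock proteins had a median of 0.03, and the chaperone Dnaja1 was non-overlapping upward at 0.21 (SE 0.06, 0.151), or 0.12 among replicates 2 to 4. Circadian clock genes had a median of -0.09 (17 tested, 1 positive and 0 negative), hypoxia targets -0.04, SOCS and STAT genes -0.06, and TGF-beta and BMP genes -0.05. The medians of endoplasmic reticulum chaperones, metal-responsive genes, cholesterol synthesis and uptake, mitochondrial ribosomal proteins, atrophy genes, and insulin and growth factor signalling were 0.04, 0.02, 0.03, 0.05, 0.03 and -0.04.

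Each low dose was also set against untreated by itself. At 1 µM, 16 probe sets were called (0.111%), 5 rises and 11 falls (4 and 0 with median centring), and at 10 µM 2 were called (0.0139%), both falls (2 rises and 1 fall with median centring). With the replicate number as a block the counts were 0 at 1 µM and 2 at 10 µM. Between 10 and 1 µM limma called 0 probe sets in the main and in 10 other settings. In the main one 973 had an unadjusted p under 0.05, and the smallest adjusted p was 0.39. Of the called genes, Hes1 differed between the doses by -0.14 (SE 0.08, adjusted p = 0.804) and Lmcd1 by -0.10 (SE 0.12, 0.906). These comparisons share the untreated arrays with the pooled one.

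The pooled difference was not the same in both batches for 181 probe sets (1.26%), the calls of the interaction between low dose and batch, 122 of them more positive among the replicate-1 arrays (179 of 200 with median centring). Of the 181, 128 had opposite signs in the batches. In some of these the difference was near 0 in replicates 2 to 4, as for Map2k2 (1.76 among the replicate-1 arrays and -0.01). Opposite signs alone therefore do not show a reversal. Of the 9 pooled calls 0 were among the 181, which is near the share of 1.26%. Untreated replicate 1, the array that stood apart most, is the sole untreated array of its batch, so an array effect and a batch effect on the low-dose response cannot be told apart there.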

How the data were processed

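The authors deposited linear intensity values, 1 signal per probe set and array, made with Affymetrix Microarray Suite 5.0 (MAS5), per the labels and the submitters' processing notes. The 2% trimmed mean of every array was 500.1 to 500.2, so a global scaling had been applied. Replicates were not pooled, and 0 pairs of arrays held identical values. With arrays there is no read depth, and their number (4 per dose) limits the precision.

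Here the remaining differences in trimmed mean were removed, signals were floored at 1 and log2 was taken. After removal of 64 controls, probe sets at or above the 40th percentile of the array on 4 or more of the 20 arrays were kept for testing (14379 kept, 8247 not). limma 3.58.1 in R 4.3.3 (lmFit, then eBayes with trend = TRUE; 14 degrees of freedom from residuals and 7.5 from the prior) fitted 5 dose means and a term for the replicate-1 batch on all 20 arrays; the contrast was the mean of 1 and 10 µM minus 0 µM. Between 0 and 1 µM the deviations of same-numbered arrays correlated at 0.463, 0.169, 0.193 and 0.105 (replicates 1 to 4; -0.01 to 0.046 within replicates 2 to 4), so the fit with the replicate number as a block is given beside the 1 µM count. The interaction with the batch was fitted on the 12 arrays. Adjusted p-values are limma's with Benjamini-Hochberg over all tested probe sets, two-sided. A difference is on the log2 signal scale. The design text's own rule asks for agreement of every array pair and a change above 1.75; it was applied as an alternative without the software's present and difference calls.

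Gene symbols are those of GEO's annotation of the platform, possibly dated, compared with a RefSeq table of GRCm38.p6 (0 changed): 20380 probe sets had 1 symbol, 691 several and 1555 none. Overlapping or shared sequences of x_at and s_at probe sets can mix genes.

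The comparison, the gene lists and the alternatives were chosen with earlier results of these data known. Named genes were, by rule, called genes (up to 15 rises and 15 falls), or in a direction with fewer than 5 calls the 5 of smallest p, Hes1, called list members, up to 4 members per list with the largest signal or moderated t, and the genes Hmox1, Srxn1, Slc19a2, Txnrd1, Gclm, Mdm2, Cdkn1a, Trp53inp1, Sesn2, Ddit3, Atf3, Myc and Spry1; others named were chosen after their values were seen, such as non-overlapping genes and members described for their role. None of the histone genes listed was matched on the chip. On simulated data with 200 changed probe sets among the 14379 of the pooled comparison, the fit called 92.4% of those changed by 1 on the log2 scale, 71.2% at 0.6 and 35.3% at 0.3, and 2 unchanged ones. The simulated arrays had independent noise, equal quality and a batch shift unrelated to dose. The real arrays had weights of 0.29 to 2.82 and 181 interaction calls, so these rates may not hold for them.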

Additional observations from a re-analysis of the deposited data

Results flagged for a closer look

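In 5 cases 1 array of a dose lay far from the other 3 (gap over range beyond Dixon's 95% value), among 90 groups of 4 tested for named genes, and chance flags about 1 in 20. The called Cnbp probe set had 2535.3 on untreated replicate 1, against 1753.4 to 1792.4 on the other untreated arrays. The called Snhg1 probe set had 1166.8 on untreated replicate 1 (others 785.6 to 812) and 978.4 on 10 µM replicate 1 (others 649.5 to 670.5). For both probe sets replicate 1 had the highest signal at every dose, and the fit has a term for that batch. Mdm2 had 1462.3 on 10 µM replicate 1 (others 1136.3 to 1144.4), and Trp53inp1 had 420.7 on 10 µM replicate 4 (others 582.4 to 609.2).

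The pooled difference of 181 probe sets differed between the replicate-1 arrays and replicates 2 to 4 by the interaction test. Ppp1r3c, a glycogen-targeting subunit of protein phosphatase 1 (4.62 among the replicate-1 arrays and 0.57 among replicates 2 to 4, adjusted p = 0.00544), and Mcm7, a subunit of the replicative helicase (-1.32 and 0.25, adjusted p = 0.000391), are examples chosen after their values were seen.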

How the results depend on the processing

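The pooled comparison gave 9 calls. It gave 1 with no batch term, 1 with the replicate block in place of the batch term, 1 in the 12 arrays alone, 43 in replicates 2 to 4, 154 with array weights, 5 with median centring (4 rises and 1 fall, against 3 and 6), 17 with quantile normalization (5 and 12), 18 with log2(signal + 16), 22 with the 60th percentile filter and 5 under the design text's crossed rule (Snai2, Ppp1r3c, Zap70, Rdh14 and 1 unnamed probe set), and leaving out 1 array gave 0 to 26. At 1 µM the 16 calls became 0 with no batch term, 0 with the replicate block, 1 in the 12 arrays, 107 in replicates 2 to 4, 58 with array weights and 4 with median centring, and 0 to 58 on leaving out 1 array. At 10 µM the 2 calls became 1 with no batch term, 1 in the 12 arrays, 4 in replicates 2 to 4, 103 with array weights and 1 with quantile normalization, stayed at 2 with the replicate block, and were 0 to 7 on leaving out 1 array. Between 10 and 1 µM the range was 0 to 1. The 181 interaction calls became 348 with array weights, 432 with quantile normalization, 112 without a filter and 112 with the 60th percentile filter, and 39 to 372 on leaving out 1 array; that fit could not be made without untreated replicate 1.

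Hes1 kept its call in all 10 limma fits with another setting, the fit without a filter among them (highest adjusted p = 0.0243). Hes1 did not pass the design text's crossed rule. The other 8 called probe sets lost their call with no batch term, with the replicate block and in the 12 arrays alone. Over the named genes and their alternatives, 2930 values kept their call or, without one, moved by at most 1 SE, 206 uncalled values moved by more, 78 lost a call, 49 gained one and 0 called values reversed. Same-numbered arrays had correlated deviations of -0.123 to 0.463 over all numbered arrays and of -0.187 to 0.046 in replicates 2 to 4. Since not every pair exceeded 0.1, the numbers were not taken to pair the samples of the pooled comparison. The causes of these changes were not tested. Dim probe sets have less exact differences: the median SE was 0.168 in the dimmest of 4 bins of genes and 0.065 in the brightest.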
